A study of Mus musculus with 44 samples.

Results

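The genes described here are 9 immediate early genes of the mouse: *Egr1*, *Egr2* and *Egr3* of the EGR family, *Nr4a1*, *Nr4a2* and *Nr4a3* of the NR4A family, and *Ier2*, *Ier5* and *Btg2*. They were chosen by name, with earlier results of these data known, from the table of normalized counts, which held values for 25865 genes. All 9 were in that table, and 6 of them passed the filter of a mean of at least 10 normalized counts that left 12597 genes for testing. *Egr2*, *Egr3* and *Nr4a3* did not pass it and are described by their reads.

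The study treated cultured mouse granulosa cells, the somatic cells that surround the oocyte, for 4 h with recombinant mouse GDF9 at 100 ng/mL or with vehicle. GDF9 is a ligand of the TGF-beta family that the oocyte secretes, and SMAD2 and SMAD3, with SMAD4, carry its signal to the genome. RNA-seq covered 2 libraries per treatment. The study describes them as made from Smad3 PA/PA cells, and the sample labels give no genotype. CUT&RUN, in which a nuclease tethered by an antibody cuts out the DNA around its target, covered Smad2 HA/+ and Smad3 PA/PA cells with 2 replicates per antibody and treatment and gave the 32 peak lists used here. The HA and PA tags sit on the endogenous *Smad2* and *Smad3* genes in every tissue of the animal, so the vehicle cells carried them as well. Smad2 HA/+ cells have 1 tagged and 1 untagged *Smad2* allele, and Smad3 PA/PA cells have no untagged *Smad3*. The mice were 3 to 4 weeks old and had been stimulated with PMSG, a gonadotropin, for RNA-seq as for CUT&RUN. For CUT&RUN the dose was 5 IU, given 46 h before collection, and the cells were pooled from 8 mice and cultured for 4 d, and each reaction held about 55000 cells. Both lines were kept on a mixed C57BL/6J and 129S5/SvEvBrd background.

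Immediate early genes are transcribed within minutes of a stimulus, from factors that are already present in the cell, and most of their transcripts are short-lived. EGR proteins are zinc finger transcription factors that bind GC-rich sites and are held in check by the NAB corepressors. NR4A proteins are orphan nuclear receptors that act as monomers, dimers or partners of RXR, and in the ovary they are known as targets of gonadotropins acting through cyclic AMP. IER2 and IER5 are small nuclear proteins, and BTG2 is an antiproliferative protein that binds the CCR4-NOT deadenylase.

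Promoter sequences were available from RefSeq (GRCm38.p6, the assembly of mm10) for 6 of the 9 genes, namely *Btg2*, *Ier5*, *Nr4a1*, *Nr4a2*, *Nr4a3* and *Egr2*. *Egr1*, *Egr3* and *Ier2* had no entry. The 250 bases upstream of the start are shown for the 4 of them that were tested for expression, since these windows lay under H3K27ac peaks in both lines. Capitals mark TGACG, the core of the cyclic AMP response element, on either strand, and the sequences run in the direction of transcription.

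*Nr4a1*, chr15:101266596-101266845, plus strand: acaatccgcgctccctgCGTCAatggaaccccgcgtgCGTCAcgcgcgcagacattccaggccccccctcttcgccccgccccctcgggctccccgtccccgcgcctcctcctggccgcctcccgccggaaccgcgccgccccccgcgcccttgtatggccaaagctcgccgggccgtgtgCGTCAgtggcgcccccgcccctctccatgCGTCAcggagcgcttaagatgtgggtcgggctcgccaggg
*Nr4a2*, chr2:57124004-57124253, minus strand: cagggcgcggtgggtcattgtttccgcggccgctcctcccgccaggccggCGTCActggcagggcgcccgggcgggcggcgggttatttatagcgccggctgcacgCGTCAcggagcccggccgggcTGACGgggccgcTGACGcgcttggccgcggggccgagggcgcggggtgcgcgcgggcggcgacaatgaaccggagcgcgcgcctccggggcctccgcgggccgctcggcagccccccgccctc
*Btg2*, chr1:134079156-134079405, minus strand: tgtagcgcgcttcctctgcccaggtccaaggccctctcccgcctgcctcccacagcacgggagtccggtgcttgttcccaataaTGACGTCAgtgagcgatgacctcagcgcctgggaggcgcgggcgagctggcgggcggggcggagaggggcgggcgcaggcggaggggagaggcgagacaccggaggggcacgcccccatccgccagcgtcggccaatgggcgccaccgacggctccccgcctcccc
*Ier5*, chr1:155099637-155099886, minus strand: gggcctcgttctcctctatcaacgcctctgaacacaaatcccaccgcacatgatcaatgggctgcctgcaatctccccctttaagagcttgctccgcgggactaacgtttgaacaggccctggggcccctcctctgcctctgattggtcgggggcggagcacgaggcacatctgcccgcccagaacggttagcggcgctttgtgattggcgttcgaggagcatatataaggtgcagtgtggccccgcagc

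The *Nr4a1* and *Nr4a2* windows each held 4 matches of TGACG, and so did that of *Nr4a3*, which is not shown. *Btg2* held 2, which overlap as the palindrome in capitals, and *Ier5* held none. *Egr2* held 2 in 3 of its 5 windows, and these 3 windows overlap and share the same 2 sites. Of the 32851 promoter windows of the same length in the RefSeq table, 17.8% held at least 1 match and 0.137% held at least 4. The limit of 4 equals the count in the NR4A windows and was not among the planned settings. The EGR core GGGGGCG matched 3 times in the *Nr4a1* window and 1 time each in those of *Btg2*, *Ier5* and *Nr4a3*, with a match in 14.8% of all windows. The GC box GGGCGG, which can overlap that core, matched in all 4 windows and in 32.7% of all windows. A CArG box, the site of serum response factor, was in 1.47% of all windows and, of the 6 members with an entry, in windows upstream of *Egr2* alone. The SMAD box CAGAC matched 1 time in the *Nr4a1* window, also in those of *Nr4a3* and *Egr2*, and in 42.2% of all windows. The nuclear receptor site AGGTCA matched in the *Btg2* window and in 14% of all windows. GTGGGCG, the second EGR core searched, was in 7.02% of all windows and in 1 window upstream of *Egr2*, and the AP-1 site TGANTCA was in 6.75% of all windows and in no window of the 6 members with an entry. These are matches of letters and say nothing about binding.

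The 4 RNA-seq libraries held 8827825 to 11416005 reads in genes, recovered from the normalized counts. No source used here ties the replicates to different animals or cultures, and the p-values therefore reflect the spread among these libraries alone, which may be technical. Mitochondrially encoded RNAs took 3.25% and 3.56% of the counts with GDF9 and 2.49% and 2.5% with vehicle, and nuclear noncoding RNAs took 0.372% and 0.402% against 0.171% and 0.174%. Of 11 tested mitochondrially encoded genes 9 were called higher with GDF9, and so were all 6 nuclear noncoding RNAs of a list led by *Malat1*. The cells matched their label in *Foxl2* (745 to 834 normalized counts) and *Inha* (13383 to 14887), but *Cyp19a1* and *Amh*, which also define granulosa cells, were near 0 (at most 2.90). Of the 4 theca markers, *Insl3* was at 0 in all 4 libraries, and *Cyp17a1* and *Lhcgr* did not exceed 2.01. The last, *Cyp11a1*, which granulosa cells also make, was at 44250 to 46036. Stroma markers summed to 1463 to 1519 and surface epithelium markers to 717 to 807. The sums of leukocyte, endothelium and oocyte markers did not exceed 82.2. In bulk RNA, fewer cells of a type and less RNA per cell cannot be told apart.

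GDF9 raised 4 of the 6 tested members: *Egr1* by 1.66-fold, *Nr4a1* by 1.79-fold, and *Btg2* and *Ier2* by 1.19-fold each, as ratios of means. No tested member fell, and *Ier5* and *Nr4a2* did not pass the test. A gene was called at an adjusted p under 0.05 (limma with a trend, on log2 of the value plus 1, Benjamini-Hochberg over all tested genes) and a log2 fold change beyond 0.18. Of all tested genes, 2.44% were called higher and 0.707% lower. The median log2 fold change was 0.25 over the 6 members and -0.01 over all tested genes, whose middle 50% lay between -0.09 and 0.09. In 5 of the 6 tested members both GDF9 libraries lay above both vehicle libraries, as they did in 22% of all tested genes. Since the members were chosen with earlier results of these data known, these contrasts with all tested genes are descriptions and not tests.

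**Figure D1:**
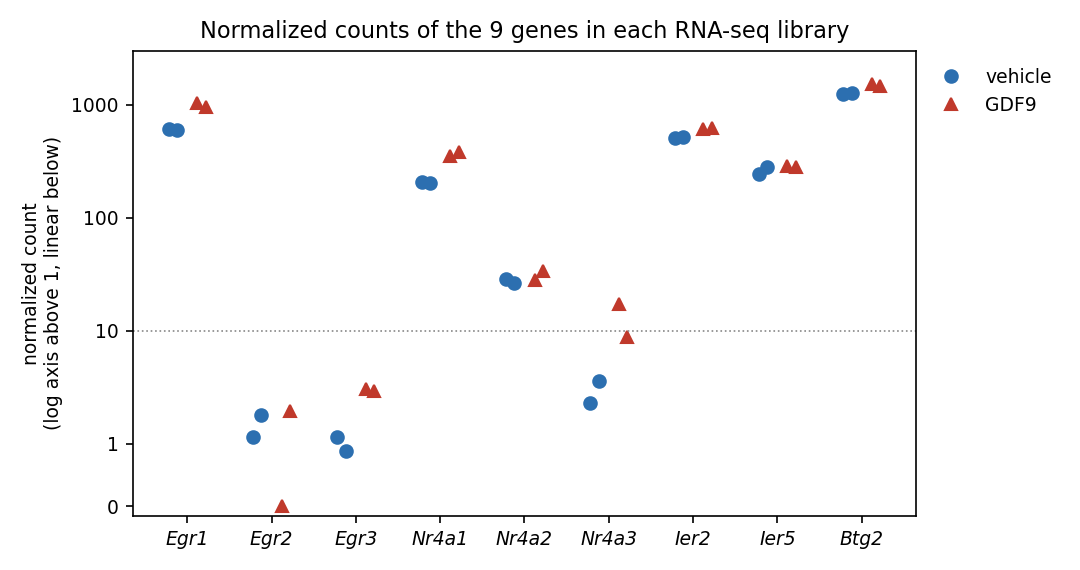
Normalized count of each of the 9 genes in the 4 RNA-seq libraries (triangles, GDF9; circles, vehicle; log axis above 1, linear below; dotted line, 10). GDF9 and vehicle points were clearly apart in *Egr1* and *Nr4a1*, close in *Ier2*, *Ier5* and *Btg2*, and overlapped in *Nr4a2* and *Egr2*.

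*Egr1* (chr18:34859823-34864984, plus strand, mm10) was the only EGR gene with a substantial level. With GDF9 its normalized counts were 1042 and 963, and with vehicle they were 614 and 591. The groups did not overlap, and the gap between them was several times the distance within either. The log2 fold change was 0.73 ± 0.06 (SE, n = 2 per group, limma adjusted p = 6.5e-10), which placed *Egr1* at rank 52 of the 307 genes called higher.

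*Egr2* (chr10:67535475-67542188) and *Egr3* (chr14:70077203-70082614), its relatives with the same DNA-binding domain, were nearly absent from these cells. *Egr2* had 0 and 2 reads with GDF9 and 1 and 2 reads with vehicle. *Egr3* had 3 reads in either GDF9 library and 1 read in either vehicle library. The ratio of GDF9 to vehicle reads, adjusted for the size of the libraries, was 0.658 (95% counting interval 0.0549 to 5.74) for *Egr2* and 2.96 (0.529 to 30) for *Egr3*. Both intervals include no difference, so none was detectable at this depth, and they cover counting error only.

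*Nr4a1* (chr15:101254269-101274795, plus strand), also known as NUR77, showed the largest change of the tested members. It had 353 and 379 normalized counts with GDF9 and 206 and 203 with vehicle. The lowest GDF9 library was far above the highest vehicle library. The log2 fold change was 0.84 ± 0.09 (SE, n = 2 per group, limma adjusted p = 2.22e-07), at rank 39 of the genes called higher.

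*Nr4a2* (chr2:57106830-57124003, minus strand), also known as NURR1, had 28.2 and 33.9 normalized counts with GDF9 and 28.7 and 26.6 with vehicle. The groups overlapped, with the first GDF9 library between the vehicle libraries. Its log2 fold change of 0.16 ± 0.27 (SE, limma adjusted p = 0.837) did not pass the test.

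*Nr4a3* (chr4:48045153-48086447, plus strand), also known as NOR1, had 17 and 9 reads with GDF9 and 2 and 4 reads with vehicle. Its normalized counts were 17.1 and 8.71 against 2.30 and 3.54. The groups did not overlap, though the GDF9 libraries differed from each other by more than the vehicle level. The ratio of GDF9 to vehicle reads was 4.28 (95% counting interval 1.72 to 12.7, which leaves out the spread between replicates). The gene was below the filter, and in a limma fit without the filter its log2 fold change of 1.78 had an adjusted p of 0.166.

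*Btg2* (chr1:134075170-134079120, minus strand) was the most highly expressed member. It had 1512 and 1476 normalized counts with GDF9 and 1254 and 1261 with vehicle. The vehicle libraries lay close together, and both GDF9 libraries were above them. The log2 fold change was 0.25 ± 0.05 (SE, n = 2 per group, limma adjusted p = 0.00198).

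*Ier2* (chr8:84661331-84662852, minus strand), a gene without introns, had 610 and 615 normalized counts with GDF9 and 511 and 515 with vehicle. The groups did not overlap. The log2 fold change was 0.26 ± 0.07 (SE, n = 2 per group, limma adjusted p = 0.0247). This call was lost when any 1 of the 4 libraries was left out (limma adjusted p from 0.054 to 0.184), without the filter on low values (0.0883) and with DESeq2 on the recovered reads (0.281). Over all 13 alternatives its adjusted p ran from 0.007 to 0.281.

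*Ier5* (chr1:155096361-155099636, minus strand), likewise without introns, had 284 and 281 normalized counts with GDF9 and 242 and 280 with vehicle. The second vehicle library was at the GDF9 level, and only the first was lower. The log2 fold change of 0.12 ± 0.10 (SE, limma adjusted p = 0.617) did not pass the test.

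The calls of *Egr1*, *Nr4a1* and *Btg2* were kept with any 1 library left out, with log2 fold changes from 0.68 to 0.79, 0.79 to 0.89 and 0.23 to 0.27. When the libraries were rescaled without the mitochondrial and nuclear RNAs that differed between treatments, the log2 fold changes were 0.74 for *Egr1*, 0.85 for *Nr4a1*, 0.25 for *Btg2* and 0.26 for *Ier2*, and all 4 were called higher. These RNAs took at most 3.56% and 0.402% of a library's counts. The rescaling moved the median log2 fold change over tested genes only from -0.006 to 0.0002, so it could hardly change a call. Whether the members' changes are tied to those RNAs was not tested.

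Per kb of exon in GENCODE vM21, the vehicle levels fell in the order *Btg2* (458 normalized counts per kb), *Ier2* (337), *Egr1* (134), *Ier5* (79.7), *Nr4a1* (58.2), *Nr4a2* (6.81), *Nr4a3* (0.488), *Egr2* (0.43) and *Egr3* (0.231). The libraries of neighbours in this order overlapped only for *Nr4a3* and *Egr2*. With GDF9, *Nr4a1* (104 per kb) was above *Ier5* (86.2 per kb), and *Egr3* (0.672 per kb) above *Egr2* (0.285 per kb). No neighbours overlapped with GDF9. The other members kept their places.

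**Figure D2:**
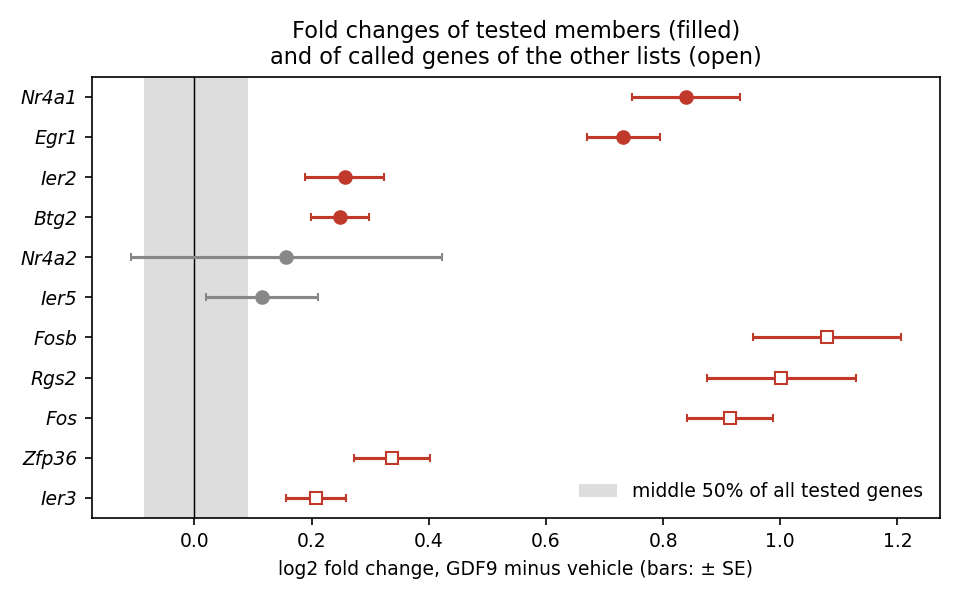
Log2 fold change of GDF9 over vehicle (± SE, limma) of the 6 tested members (filled circles) and of the called genes among other immediate early genes (open squares). Red marks genes called higher, gray those not called, and the gray band holds the middle 50% of all tested genes, from -0.09 to 0.09.

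The genes whose values ran most like those of a member were found by the distance between the 4 log2 values, each taken from the gene's own mean, over 10662 other genes with a mean of at least 50. For *Egr1* these were *Col7a1* (distance 0.0601), *Spon1* (0.0763) and *Ccdc84* (0.0918). For *Nr4a1* they were *Tmem198* (0.124), *Leng8* (0.13) and *Ccdc84* (0.143). All 5 were called higher with GDF9, with log2 fold changes from 0.72 for *Ccdc84* to 0.84 for *Tmem198*. The call of *Ccdc84* was lost without GDF9 replicate 1 (limma adjusted p = 0.0518). With 4 libraries, genes with changes of like size lie close together by this measure.

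Other immediate early genes moved in part. Of the 7 FOS and JUN genes, which encode subunits of AP-1, all were tested, 2 were called higher and none lower, with a median log2 fold change of 0.12. *Fos* had 701 and 668 normalized counts with GDF9 and 380 and 346 with vehicle (log2 fold change 0.91 ± 0.07 SE, limma adjusted p = 2.49e-10). *Fosb* had 229 and 204 against 108 and 95.7 (1.08 ± 0.13 SE, limma adjusted p = 6.21e-07). *Jun*, *Junb* and *Jund* had log2 fold changes of 0.12, 0.14 and 0.04 and were not called. Of this list edgeR called 2 genes and DESeq2 called 1, *Fos*, with no adjusted p for *Fosb*.

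Of 28 tested genes in a list of further immediate early genes, 3 were called higher and none lower, with a median log2 fold change of 0.05. *Rgs2*, a regulator of G-protein signaling, had 194 and 199 normalized counts with GDF9 and 93 and 103 with vehicle (log2 fold change 1.00 ± 0.13 SE, limma adjusted p = 3.25e-06). *Zfp36*, which encodes an RNA-binding protein that speeds the decay of AU-rich transcripts, had 1186 and 1013 against 826 and 912 (0.34 ± 0.07 SE, limma adjusted p = 0.0013). *Ier3* had 1354 and 1375 against 1212 and 1153 (0.21 ± 0.05 SE, limma adjusted p = 0.0163). The call of *Zfp36* was lost without vehicle replicate 1 (limma adjusted p = 0.0658) and that of *Ier3* without either vehicle library (0.0537 and 0.229). Both calls were also lost without the filter on low values (limma adjusted p = 0.0753 and 0.0876), and that of *Ier3* with DESeq2 (0.143). Of this list edgeR called 3 genes and DESeq2 called 1, *Zfp36*, with no adjusted p for *Rgs2*.

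Genes that act before and after the members held no call. Of all tested genes only 2.44% were called higher and 0.707% lower, so lists this short may hold none. In simulated data limma called only 20.8% of changes of 1.2-fold. Of 17 tested factors that drive immediate early genes, among them serum response factor, the ELK proteins, CREB and the kinases that activate them, limma called none, with 1 gene at an unadjusted p under 0.05 and none called by edgeR or DESeq2. *Srf* had a log2 fold change of -0.06 and *Creb1* of 0.10. Of 7 tested EGR corepressors and genes with EGR sites, none was called by limma, edgeR or DESeq2 and none had an unadjusted p under 0.05. *Nab2*, a corepressor that EGR proteins are known to induce, had 239 and 234 normalized counts with GDF9 and 234 and 260 with vehicle. Of 5 tested NR4A partners and steroidogenic genes with NR4A sites, again none was called by any of the 3 tools or had an unadjusted p under 0.05. *Star*, which brings cholesterol into mitochondria, had 7776 and 8073 against 7671 and 7618, and *Rxrg* and *Nr0b1* were at 0 in all 4 libraries. The JUN genes and the uncalled genes named here were picked as examples after their values were seen. DESeq2 gave no adjusted p for *Nr4a1*, at 203 to 379 normalized counts, and genes of these lists at such levels or below, like *Nab2*, may have had none either. A lack of DESeq2 calls says nothing about them.

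Values of other lists are given because they moved, or could move, with the same libraries. Of 11 tested heat-shock genes 1 was called lower and none higher (unadjusted p under 0.05 for 4 of the 11, edgeR 1 and DESeq2 0 called). It was *Dnaja1*, a cochaperone, at 1976 and 1960 with GDF9 against 2210 and 2278 with vehicle. Summed over 10 granulosa markers the level was 34280 and 34728 with GDF9 and 33761 and 34718 with vehicle, and of 8 tested *Hsd17b1* and *Esr2* were called higher and *Nr5a2* lower. The calls of *Dnaja1* and *Esr2* were lost without either vehicle library, that of *Esr2* also without GDF9 replicate 1 and that of *Nr5a2* without vehicle replicate 1 (limma adjusted p from 0.0511 to 0.185). Sums over the 4 markers each of leukocytes (77.5 and 82.2 against 59.7 and 71.8 normalized counts), endothelium (20.1 and 34.8 against 36.8 and 39.9), stroma (1479 and 1463 against 1519 and 1485) and surface epithelium (807 and 761 against 717 and 751) and over the 5 of the oocyte (30.2 and 31 against 27.6 and 34.6) held no called gene. The theca sum (45756 and 46038 against 44252 and 44987) was nearly all *Cyp11a1*, which granulosa cells also make. The part of any of these in the members' changes was not tested.

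H3K27ac, an acetylation mark of active promoters and enhancers, had peaks near the start sites of most members with either treatment. A peak was counted where it came within 3 kb of any annotated start of the gene. In Smad2 HA/+ cells 8 of the 9 members had such a peak in both GDF9 replicates and 7 in both vehicle replicates, against 81.3% and 78.7% of tested genes. In Smad3 PA/PA cells 7 had one with GDF9 and 7 with vehicle, against 71.9% and 72.2%. The 7 were the same in all 4 sets, and 65.2% of tested genes had such peaks in all of them. *Egr3* had a peak in 1 of the 8 lists and *Egr2* in 4, so the genes with the fewest reads were also those with the fewest H3K27ac peaks. A peak within 3 kb need not lie over the start. In Smad2 HA/+ cells 0 of 4 lists had one over any promoter window of *Egr2*. In Smad3 PA/PA cells 1 of 4 lists had one over that of *Nr4a3*.

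Peaks of the lines differed in kind. Over all peaks, the median width was 18565 to 29257 bp in the Smad2 HA/+ lists and 2940.5 to 3288 bp in the Smad3 PA/PA lists. At *Btg2* the Smad2 HA/+ peaks were 46349 to 62179 bp wide and ranked between the 97.4 and 98.7 percentiles of their own lists by maximum signal. That maximum lay upstream, at -19902 to -19617 bp from the start, so this rank is not the height at the start itself. The Smad3 PA/PA peaks within 3 kb of the *Btg2* start were 4121 to 6796 bp wide, at the 82 to 96 percentiles. The *Nr4a1* peaks of Smad2 HA/+ cells were 62496 to 126985 bp wide and together ran over *Acvr1b*, *Atg101* and *Grasp* as well. *Egr1*, for all its expression, had H3K27ac peaks of middling height, at the 45.1 to 53.9 percentiles in Smad2 HA/+ cells and the 25.9 to 53.5 percentiles in Smad3 PA/PA cells.

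To compare treatments, the signal of the peaks at a gene's starts was taken as a share of all signal in its list, in ppm (parts per 1000000). Whole peaks were counted, so a peak that extends over neighbours raises the share. *Nr4a2* was the member with the higher share in both GDF9 replicates of both lines, as 1.93% of tested genes were. It had 43.1 and 49.6 ppm with GDF9 and 32.4 and 27.7 with vehicle in Smad3 PA/PA cells. In Smad2 HA/+ cells it had 41 and 41.3 against 40.3 and 39, where the gap between the groups was smaller than that between the vehicle lists. Its RNA, as described, was not called.

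*Egr1* and *Nr4a1*, the members with the largest RNA changes, showed no rise of this share. *Egr1* had 28.7 and 30.4 ppm with GDF9 and 33.4 and 29.5 with vehicle in Smad2 HA/+ cells, and 16 and 19.9 against 15.7 and 22 in Smad3 PA/PA cells. The treatments overlapped in both lines. *Nr4a1* had 188 and 187 ppm against 189 and 262 in Smad2 HA/+ cells, where the second vehicle list alone stood apart with the widest peak. In Smad3 PA/PA cells it had 19.5 and 56.2 against 46 and 50.9, with the vehicle lists between the GDF9 lists.

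*Btg2* had 232 and 232 ppm with GDF9 against 229 and 228 with vehicle in Smad2 HA/+ cells, and 79.8 and 80.7 against 83.4 and 108 in Smad3 PA/PA cells. GDF9 was thus above vehicle in 1 line and below it in the other. *Ier2* had 156 and 157 against 221 and 164 in Smad2 HA/+ cells, where the first vehicle list held a peak of 100525 bp, and 90.9 and 75.5 against 79.9 and 81.1 in Smad3 PA/PA cells. In all, the share was higher with GDF9 in 2 of the 9 members in Smad2 HA/+ cells (8.57% of tested genes) and 1 in Smad3 PA/PA cells (17.7%), and lower in 2 (32.3%) and 1 (11%). With 2 lists per group an exact permutation test cannot pass, since its smallest two-sided p is 0.333. Of the rest, *Nr4a3* overlapped in both lines (22 and 26.8 against 23.6 and 21.3 ppm, and 34.6 and 21.4 against 23.9 and 26.7 ppm). *Ier5* reached 121 ppm in 1 GDF9 list of Smad2 HA/+ cells, with a peak of 70301 bp, and lay between 45 and 49.4 in the other lists of that line. Taken on the deposited scale, without the division by the list's total, no member was higher with GDF9 in either line.

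**Figure D3:**
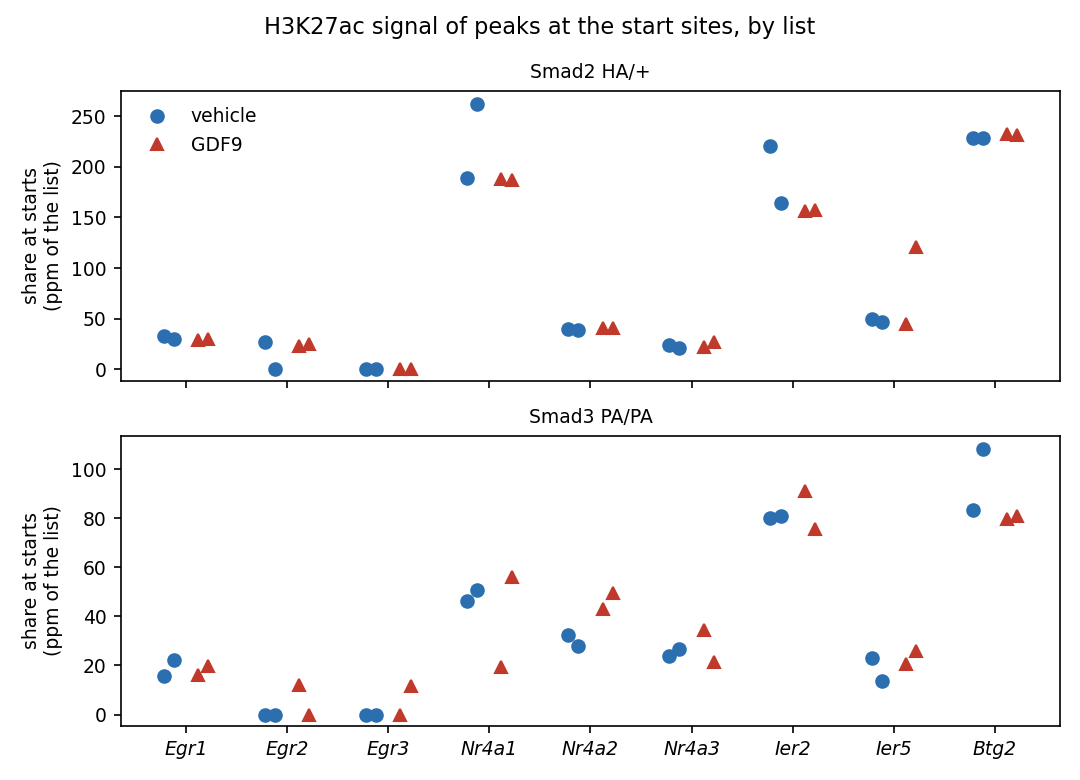
Share of each H3K27ac list's signal, in ppm, in peaks within 3 kb of a start of each gene (triangles, GDF9; circles, vehicle; 2 lists each). In Smad3 PA/PA cells *Nr4a2* lay at 43.1 and 49.6 with GDF9 against 32.4 and 27.7 with vehicle, while most other members overlapped.

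SMAD-type peaks, those of antibodies to SMAD2, SMAD3, SMAD4 and the tags, lay at the starts of all 9 members in Smad2 HA/+ cells with either treatment. Each of HA, SMAD2 and SMAD3 had such a peak in both replicates at 8 or 9 of the 9 members with GDF9 and at 9 with vehicle. The exception was *Ier5*, which had HA and SMAD2 peaks in 1 of 2 GDF9 lists. Of tested genes, 76.7% had HA peaks in both GDF9 lists and 83.1% in both vehicle lists. The shares were 66.6% and 75.1% for SMAD2 and 79.4% and 85.9% for SMAD3. The highest start peaks at *Egr1*, *Ier2* and *Nr4a1* were among the highest of their lists, with medians over the 12 lists at the 98.3, 97.6 and 96.7 percentiles. *Btg2* and *Nr4a3* followed at 94.0 and 93.9. *Ier5* had the lowest median, at the 79.1 percentile over 10 lists. These percentiles rank against all peaks of a list, wherever they lie. They were not taken for the start peaks of all tested genes, so they do not set the members apart from other genes.

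Peaks at the starts were fewer in Smad3 PA/PA cells. No member had a PA peak, which marks tagged SMAD3, at a start in both replicates with GDF9 or with vehicle, where 3.5% and 4.84% of tested genes had one. SMAD2 peaks were in both GDF9 replicates at *Egr1* and *Ier2* (20.2% of tested genes) and in both vehicle replicates at no member (4.31%). The second vehicle list of SMAD2 held 23278 peaks, against 79018 to 81600 in the other lists of that antibody, and the part of that shortfall in the difference was not tested. SMAD4 peaks were in both GDF9 replicates at *Nr4a1*, *Nr4a3* and *Ier2* (33.3%) and in both vehicle replicates at *Nr4a1* and *Nr4a2* (28.6%). All starts of a gene are counted together, so the replicates need not share a place. At *Nr4a1* the only such peak of GDF9 replicate 1 was chr15:101274780-101275537, and the highest of replicate 2 was chr15:101266549-101266888. With vehicle these were chr15:101268581-101269227 and chr15:101266482-101267005.

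At the start of *Ier2*, all 12 SMAD-type lists of Smad2 HA/+ cells had a peak, 6 of 6 with either treatment. In Smad3 PA/PA cells a SMAD4 peak lay within 3 kb of the start in both GDF9 lists and in neither vehicle list, a pattern of 4.83% of tested genes. The only one of the first GDF9 list, chr8:84662543-84663715 (17.3 percentile), did not overlap the highest of the second, chr8:84663729-84664399. A SMAD2 peak was in both GDF9 lists and in 1 vehicle list, where it did not overlap the highest peak of either GDF9 list. No other member had a SMAD-type peak at a start in both GDF9 lists and no vehicle list of any antibody. In Smad2 HA/+ cells 0.68% of tested genes had this pattern for HA, 1.07% for SMAD2 and 0.512% for SMAD3, and in Smad3 PA/PA cells 1.25% had it for PA and 6.87% for SMAD2. Whether 1 such pattern, over 9 members and 6 sets of antibody and line, goes beyond these shares was not tested.

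**Figure D4:**
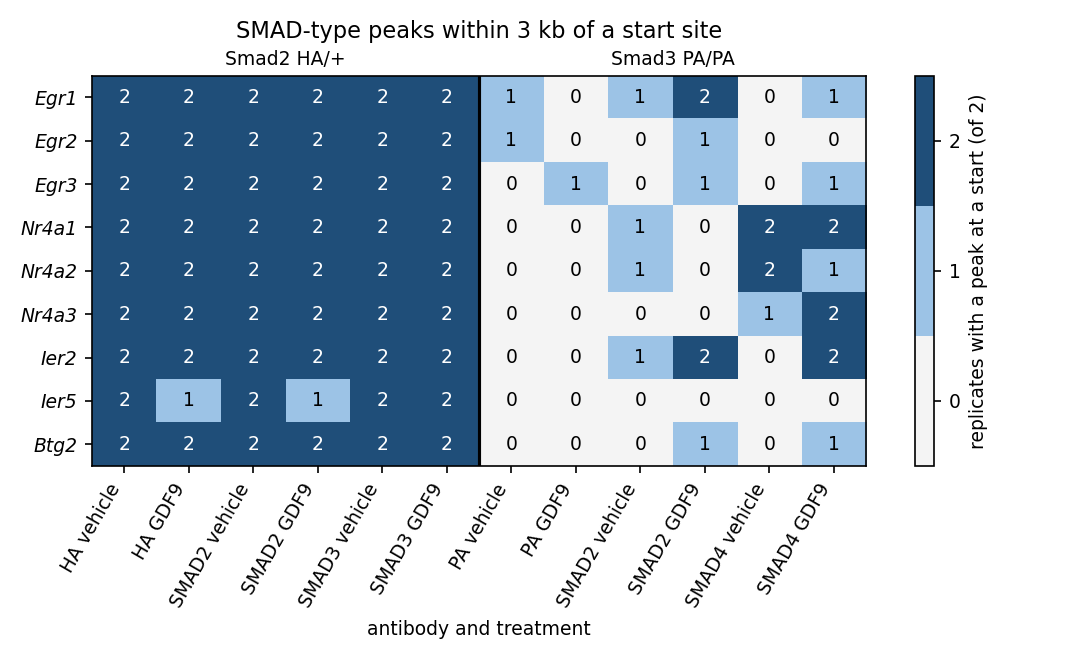
Number of replicates (0, 1 or 2) with a SMAD-type peak within 3 kb of a start, for each gene, antibody and treatment in Smad2 HA/+ cells (left) and Smad3 PA/PA cells (right). Nearly all cells on the left hold 2, and on the right 2 appears only for SMAD2 at *Egr1* and *Ier2* and for SMAD4 at *Nr4a1*, *Nr4a2*, *Nr4a3* and *Ier2*.

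Within 20 kb of the gene, no member had a SMAD-type peak of any antibody in both GDF9 lists and in no vehicle list, and 11.3% of tested genes had one. The reverse held for *Egr2* alone, with PA peaks in both vehicle lists and in no GDF9 list of Smad3 PA/PA cells, as in 7.66% of tested genes. In Smad2 HA/+ cells all 9 members had peaks of each antibody within 20 kb in both replicates of either treatment. So did 95.4% (GDF9) and 96.8% (vehicle) of tested genes for HA, 93.4% and 94.2% for SMAD2, and 95.7% and 97.2% for SMAD3. In Smad3 PA/PA cells, PA peaks within 20 kb were in both replicates at 3 members with GDF9 and 5 with vehicle (38.6% and 49.4% of tested genes). SMAD2 peaks were at 5 and 3 (65.7% and 34.1%) and SMAD4 peaks at 8 and 6 (80% and 76.2%). The windows of the members were shorter than most, with a median of 45.4 kb against 64.7 kb over tested genes. Over the 24 SMAD-type lists the members had a peak within 20 kb in a median of 21 lists, and at a start in a median of 15, the same medians as over all tested genes. *Egr2*, at 16 lists within 20 kb, had fewer than most, as only 4.6% of tested genes had fewer.

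The peaks clustered at few places. At *Egr1*, 19 of 24 lists had a peak in chr18:34858428-34878816, which starts upstream of the gene and runs past its end, and 11 had one at chr18:34839897-34843173, over an exon of the neighbouring gene *Reep2*. At *Nr4a1*, 14 lists had a peak at chr15:101265571-101268346, over the start whose promoter is shown above, 15 at chr15:101272880-101286572, from the end of the gene into *Atg101*, and 14 in the intergenic chr15:101244415-101249774. Over the 250 bases shown for *Nr4a1*, all 8 H3K27ac lists had a peak, as did all 12 SMAD-type lists of Smad2 HA/+ cells and 2 of 12 of Smad3 PA/PA cells.

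At *Nr4a2*, 16 lists had a peak within the gene at chr2:57112786-57120890 and 9 at its first start, chr2:57121277-57126703. Its 250 bases were under H3K27ac peaks in 7 of 8 lists, but under SMAD-type peaks in only 5 of 12 lists of Smad2 HA/+ cells and none of 12 of Smad3 PA/PA cells. At *Ier2*, 17 lists had a peak in chr8:84653939-84666603, 10 of 12 with GDF9 and 7 of 12 with vehicle. At *Btg2*, the place with peaks in most lists, 19, was chr1:134095041-134102692, upstream of the gene and over an exon of the predicted gene *Gm38140*. The *Btg2* promoter window was under a SMAD-type peak in all 12 lists of Smad2 HA/+ cells and in 2 of 12 of Smad3 PA/PA cells. Those 2 were GDF9 lists, 1 of SMAD2 and 1 of SMAD4, so neither antibody had the peak in both replicates. Shares over all tested genes were not taken for these windows and places. At *Ier5* the place shared by most lists, 14, lay past the end of the gene at chr1:155092470-155095130, in intergenic sequence.

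**Figure D5:**
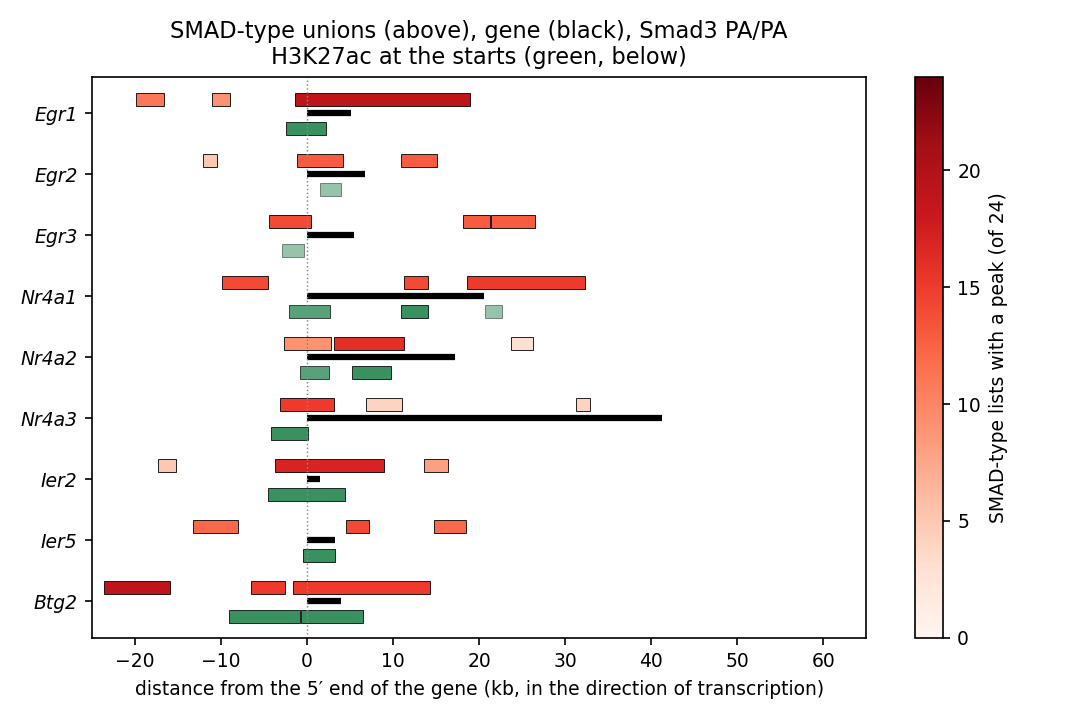
Places of overlapping SMAD-type peaks (upper boxes, at most 3 per gene, shaded by the number of the 24 lists with a peak), the gene (black) and places of H3K27ac peaks at the starts in Smad3 PA/PA cells (green, fainter where fewer of 4 lists had a peak), by distance from the gene's 5′ end in kb. *Egr1*, *Egr2*, *Egr3*, *Nr4a2*, *Nr4a3*, *Ier2* and *Btg2* had SMAD-type places over the 5′ end, and *Nr4a1* had none over its 5′ end but 1 over a later start.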

How the data were processed

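Per the labels and the study's methods, the authors mapped the RNA-seq libraries to mm10 (STAR 2.7.11b), counted reads per gene (featureCounts 2.1.1) and divided the counts by a size factor per library. The annotation and strand setting they used are not stated in these sources. The deposited signal values are thus normalized counts, not raw counts, so limma took the place of the edgeR test planned for raw counts. Each value was a whole multiple of 1 step (tolerance 0.05, 100% of values), which gave back reads for edgeR and DESeq2. Left out were 1314 of 27179 entries, which have no value per library and hold 0.311% of the summed means, and 3 columns that carry no header.

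For CUT&RUN the authors aligned reads with Bowtie2, scaled coverage to an E. coli spike-in and called peaks with SEACR in each library. The deposited lists give each peak's total and maximum signal. Whether the 8 IgG samples served as controls is not stated in these sources, and IgG was not analysed here.

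limma 3.58.1 was fitted to log2(value + 1) of genes with a mean of at least 10 (R 4.3.3). edgeR 4.0.16, DESeq2 1.42.0, other offsets, filters and scalings, a replicate block and leaving out each library were alternatives. The limma fit was first tested on simulated data, where it called 20.8% of changes of 1.2-fold, 86% of 1.5-fold and 95.9% of 3-fold. It made 10 false calls over 12549 genes tested there. Same-numbered libraries did not deviate together (correlation 0.00502), so the numbers were not taken to pair them. Counts of replicates differed by more than sampling noise (chi-square per degree of freedom 1.98 for GDF9 and 1.31 for vehicle).

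Peaks overlapping by at least 1 bp were matched to GENCODE vM21 (GRCm38, which is mm10), within 20 kb of the gene or 3 kb of a start, for 12497 tested genes with a position (12187 matched by Entrez ID and 310 by symbol). Counting intervals are exact (95%, scipy 1.17.1). Motifs were searched on both strands of the 250 bases before each start. Named were all members, called genes of each list (at most 8), the 3 genes most like a member (given for *Egr1* and *Nr4a1*), at most 3 SMAD-type places and the H3K27ac places per member, and promoters of tested members. The members and lists were chosen with earlier results of these data known.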

Additional observations from a re-analysis of the deposited data

Results flagged for a closer look

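The H3K27ac share at the starts of *Btg2* moved in opposite directions in the lines. The log2 ratio of GDF9 over vehicle was 0.02 in Smad2 HA/+ cells, where both GDF9 lists lay above both vehicle lists, and -0.26 in Smad3 PA/PA cells, where both lay below. This difference between the lines was not tested, and in Smad2 HA/+ cells the 4 shares lay within 227.9 to 231.9 ppm.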

How the results depend on the processing

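No direction reversed under any alternative. *Egr1* and *Btg2* were called under all 13 alternatives and *Nr4a1* under the 12 that gave it an adjusted p (DESeq2 gave NA for *Nr4a1*, *Ier5* and *Nr4a2*). The call of *Ier2* was lost without the filter on low values (log2 fold change 0.26), with DESeq2 (0.26) and with any 1 library left out (0.25 to 0.26). Members called higher were 2 with DESeq2 and 3 with any library left out, against 4. Over all genes, 161 were called higher and 26 lower without the filter, 113 and 20 with DESeq2, and 323 and 83 with edgeR, and quantile normalization gave 46 lower. Leaving out 1 library gave 194 to 365 higher and 21 to 218 lower. The fewest came without vehicle replicate 1, the most without GDF9 replicate 2, and without vehicle replicate 2 there were 56 lower. With a replicate block 393 were called higher and 142 lower, all 4 calls of members were kept and no member gained one. The numbers share only a number, since the libraries of a number did not deviate together. The 6 *Ier2* values aside, 68 values of members kept their side of the threshold, and of those of other named genes 349 kept it and 19 lost it.

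In the peaks, 46 counts stayed within 1.5 times and 11 moved. H3K27ac at starts in both vehicle lists of Smad2 HA/+ cells fell from 7 to 4 members with the 50% of peaks of highest maximum. SMAD-type peaks in GDF9 lists only, at 0 members within 20 kb, were at 2 within 10 kb, 1 within 3 kb of a start and 3 where 1 GDF9 list was enough. A higher H3K27ac share, at 2 and 1 members in Smad2 HA/+ and Smad3 PA/PA cells, was at 0 and 0 on the deposited scale. Leaving out the lists of one replicate number, an alternative chosen after seeing the data, gave 2 to 6 and 4 to 5 members for these and 3 to 7 for SMAD-type peaks. It leaves 1 list per group, in which such patterns are more frequent by construction. Leaving out the SMAD2 lists of Smad3 PA/PA cells was likewise chosen after seeing the data. It could only lower the count of SMAD-type peaks, which was 0 with all lists, and so tests nothing. The cause of the other changes was not tested.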
